A study of Mus musculus with 12 samples.

Results

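The 39 Hox genes of the mouse were examined in embryonic fibroblasts, out of 23186 genes listed in either of the study's count tables. They were chosen by name: every protein-coding gene called Hoxa, Hoxb, Hoxc or Hoxd followed by a number. By GRCm38 positions, 11 lie in the Hoxa cluster (chr6:52155590-52260880), 10 in Hoxb (chr11:96194316-96368256), 9 in Hoxc (chr15:102921103-103036852) and 9 in Hoxd (chr2:74668310-74765142). Both tables listed 38 of the 39; Hoxb1 appeared only in the Nrf2 table, with a CPM (a read count normalised for library size) of 0.168 in 1 library and 0 in the other 5.

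The study sequenced RNA from mouse embryonic fibroblasts (MEFs), primary cells isolated at embryonic day 13.5 to 14.5, in 4 groups of 3 libraries. All cells were homozygous for an inducible allele and received adenovirus at a multiplicity of infection of 500, with RNA collected 4 days later. The Nrf2 cultures carried LSL-Nrf2D29H: with Cre virus they expressed the D29H form of NRF2, a transcription factor of antioxidant genes, and the libraries with empty virus, in which the submitters describe NRF2 as functionally absent, are labelled Nrf2 KO. The Keap1 cultures carried CA-Keap1R554Q: with Cre virus they expressed the R554Q form of KEAP1, the adaptor that targets NRF2 for degradation, and with empty virus they were functionally Keap1 wild type. Cre was delivered by adenovirus, and the labels do not name the promoter that drives it. No group received Cre without an inducible allele, so an effect of Cre itself and of the allele cannot be told apart. The Nrf2 and Keap1 cultures also differ in allele and come in separate tables, so derivation of the culture, allele and preparation cannot be told apart wherever the cultures are compared. The labels do not say whether the 3 libraries of a group came from separate embryos or cultures, and the p-values measure only the spread between these libraries.

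Hox genes encode homeodomain transcription factors that give cells along the head-to-tail axis, and along the limb, their positional identity. Their order on the chromosome follows the order in which they are used: low-numbered genes act at anterior levels, and high-numbered genes, at the other end of each cluster, act in the trunk's posterior part, the distal limb and the genital region. Genes of the same number in different clusters are paralogues that share sequence and much of their function. Cultured fibroblasts are known to keep the Hox pattern of the body site they came from.

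Total counted reads ran from 14963004 to 23818477 per library, of which Hox genes took 0.051% to 0.0559% in the 6 Nrf2 libraries and 0.0387% to 0.048% in the 6 Keap1 libraries. Nfe2l2, the gene of NRF2, stood at 49.6 to 57.1 CPM in the D29H libraries and at 40.1 to 46.5 in the libraries labelled KO, and at 41.7 to 44.2 in Keap1 wild type, so its total read count does not mark the allele labelled KO. Nqo1, a classic NRF2 target, stood at 7.65 to 10.8 CPM in the libraries labelled KO, 108 to 134 in D29H, 33.0 to 33.4 in Keap1 wild type and 305 to 378 in R554Q. Summed fibroblast markers (10 genes) stood at 21900 to 25900 CPM in the Nrf2 and 19400 to 23200 in the Keap1 libraries, against 98.4 to 141 and 58.1 to 92.6 for macrophage and blood markers. Between the cultures 17.9% of all tested genes were higher in the Nrf2 libraries and 18.1% lower. Of the 10 fibroblast markers 5 were higher, among them the collagen gene Col3a1 at 837 to 1120 against 465 to 544 CPM, and 2 were lower (Thy1 and Dcn). Of the 5 macrophage and blood markers tested, 5 were higher, among them Csf1r at 17.3 to 19.4 against 6.63 to 8.11 CPM. All 4 cartilage markers tested were higher too, summing to 185 to 233 against 147 to 171 CPM, and of 6 neural markers 4 were lower and 1 higher, summing to 204 to 241 against 249 to 275 CPM. Both epithelial markers tested were lower, with a sum over the list of 2.2 to 4.32 against 5.48 to 7.96 CPM, and none of the 5 listed liver markers reached the count needed for a test. The muscle list (0.915 to 1.76 against 0.851 to 1.71 CPM) and the endothelial list (15.8 to 23.1 against 14.9 to 18.8 CPM) had no call among 2 tested genes each. Members of the fibroblast, macrophage, cartilage, neural and epithelial lists thus move with the Nrf2 and Keap1 cultures, as the Hox genes below do. Their part in the Hox differences was not tested, and in bulk RNA fewer cells of a type and less RNA per cell cannot be told apart.

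The promoters of the 4 Hoxd genes at the posterior end of their cluster, which differed together between the cultures, are shown with that of Hoxa6. Each is the 250 bases upstream of a RefSeq start (GRCm38.p6), written 5′ to 3′ on the strand of the gene, with capitals for matches on either strand to CCAAT (a general promoter box), to TATAAA (the TATA box), to TGATTNAT (a site of HOX and PBX proteins) or to TGACNNNGC (the core of the element that NRF2 binds).
Hoxd13, chr2:74667975-74668224, plus strand: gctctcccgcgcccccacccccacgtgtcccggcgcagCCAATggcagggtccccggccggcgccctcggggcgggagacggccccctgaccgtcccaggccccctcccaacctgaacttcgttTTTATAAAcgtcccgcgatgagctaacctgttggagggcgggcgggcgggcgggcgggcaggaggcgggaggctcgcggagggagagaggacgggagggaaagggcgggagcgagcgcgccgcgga
Hoxd12, chr2:74674763-74675012, plus strand: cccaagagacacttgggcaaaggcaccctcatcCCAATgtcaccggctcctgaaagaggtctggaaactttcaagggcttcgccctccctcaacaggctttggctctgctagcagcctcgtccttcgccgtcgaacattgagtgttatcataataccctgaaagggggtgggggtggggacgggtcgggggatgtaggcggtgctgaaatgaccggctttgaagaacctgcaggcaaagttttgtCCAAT
Hoxd11, chr2:74682073-74682322, plus strand, 1 of its 2 listed starts: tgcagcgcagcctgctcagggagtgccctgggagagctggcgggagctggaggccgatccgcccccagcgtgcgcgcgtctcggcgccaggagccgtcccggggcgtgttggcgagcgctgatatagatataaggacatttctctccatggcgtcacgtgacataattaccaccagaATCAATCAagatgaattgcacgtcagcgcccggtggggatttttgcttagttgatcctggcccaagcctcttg
Hoxd10, chr2:74691641-74691890, plus strand: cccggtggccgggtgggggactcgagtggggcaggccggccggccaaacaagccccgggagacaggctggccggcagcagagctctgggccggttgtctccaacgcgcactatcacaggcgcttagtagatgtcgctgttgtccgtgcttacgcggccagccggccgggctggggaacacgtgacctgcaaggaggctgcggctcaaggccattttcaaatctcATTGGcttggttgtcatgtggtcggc
Hoxa6, chr6:52208673-52208922, minus strand: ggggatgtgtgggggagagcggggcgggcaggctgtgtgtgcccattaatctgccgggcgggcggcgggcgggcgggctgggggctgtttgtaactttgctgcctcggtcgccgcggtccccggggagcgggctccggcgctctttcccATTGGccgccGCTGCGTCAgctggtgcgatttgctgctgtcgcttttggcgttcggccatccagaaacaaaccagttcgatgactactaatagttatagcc

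RefSeq windows were at hand for 22 of the 39 genes, 24 windows in all. The NRF2 element core was in 1 of the 24 (4.17%), that of Hoxa6, where it reads as its reverse complement, against 10.2% of all 32851 windows of the same length. CCAAT was in 14 of the 24 (58.3%, against 33.8% of all windows), TATAAA in 4 (16.7% against 12.4%) and the HOX-PBX letters in 2 (8.33% against 2.82%), those of Hoxa2 and Hoxd11. In the Hoxd13 window the TATAAA letters match on both strands and overlap. The 4 Hoxd windows share none of the 4 motifs throughout: CCAAT is in 3 of them and missing from the printed Hoxd11 window. Of the 4 printed Hoxd windows that of Hoxd13 is the richest in G and C, at 74.4%, and that of Hoxd12 the poorest, at 55.6%; the other Hoxd11 window has 44.8%. These matches are descriptions of letters only.

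On the authors' FPKM scale, which divides by gene length and library total and so allows genes to be ranked, Hoxd13 was the most abundant Hox gene in both cultures. Its mean level was 40.9 FPKM in the 6 Nrf2 libraries (34.5 to 46.2) and 21.1 in the 6 Keap1 libraries (19.9 to 21.9). In the Nrf2 cultures Hoxa10 (23.5), Hoxc6 (18.5), Hoxb9 (17.8), Hoxc8 (11.2) and Hoxb6 (10.7) came next in mean FPKM. In the Keap1 cultures the next were Hoxc6 (19.6), Hoxb9 (19.2), Hoxc8 (15.6), Hoxa10 (14.7) and Hoxb6 (8.23). Among these neighbours, the ranges of Hoxc6 (15.4 to 23.7) and Hoxb9 (15.6 to 19.1) overlapped in the Nrf2 libraries, as did those of Hoxd13 (19.9 to 21.9) and Hoxc6 (16.6 to 22.3) in the Keap1 libraries. At the other end, Hoxd1 and Hoxd3 were below 0.18 FPKM and Hoxb1 at or below 0.0805 in every library that lists them, and Hoxd4, Hoxb2 and Hoxa4 stayed below 0.8. These 6 all belong to paralogue groups 1 to 4, and each of the 4 clusters held members above 10 FPKM in 1 culture or both. Of the exon bases of Hoxd3 62.8%, of Hoxd4 52.3%, of Hoxb2 27.3% and of Hoxa4 16.0% also belong to other listed genes. Reads there may be missing or assigned elsewhere, and the effect on these low levels was not tested.

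**Figure D1:**
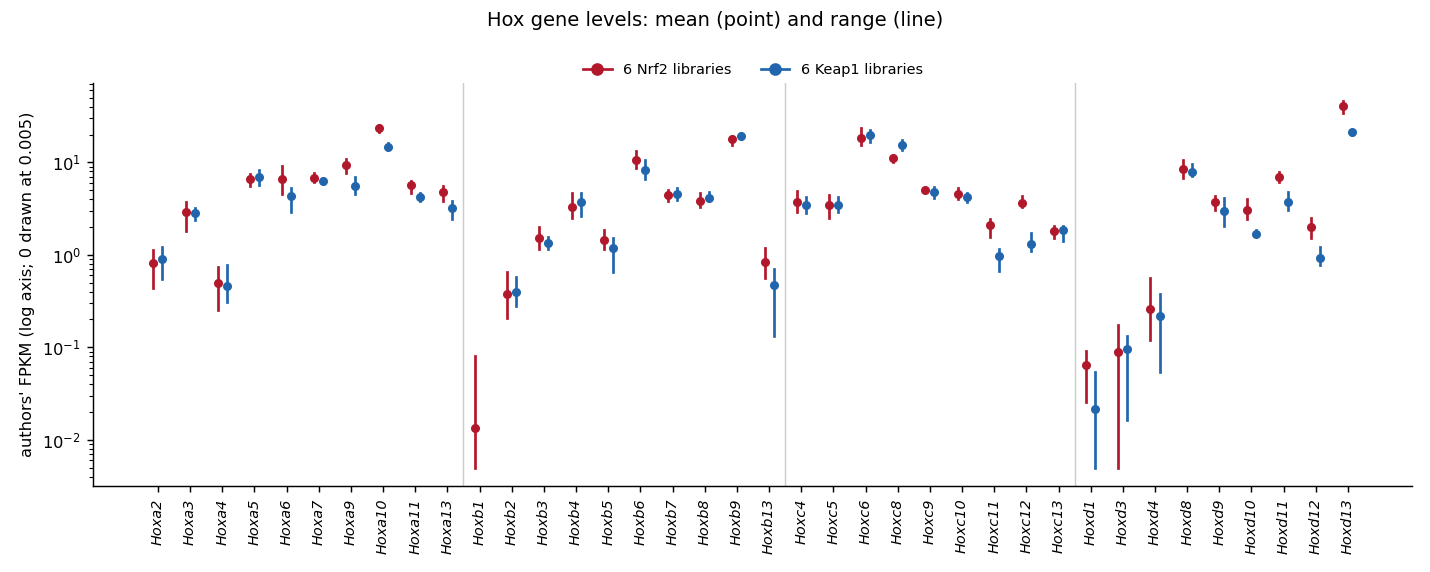
Level of 38 of the 39 Hox genes in authors' FPKM (log axis), ordered by cluster; points are means and lines the range over 6 Nrf2 (red) and 6 Keap1 (blue) libraries. The cultures separate at Hoxd13, for example, at 34.5 to 46.2 against 19.9 to 21.9, and overlap at Hoxc13, at 1.52 to 2.06 against 1.41 to 2.07.

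Read counts of all 12 libraries were then compared between the Nrf2 and the Keap1 cultures, averaging over the virus, with edgeR's quasi-likelihood test over the 14794 genes with enough reads. Most Hox genes of paralogue groups 9 to 13, the posterior part of the clusters, were higher in the Nrf2 cultures. Of the 36 Hox genes tested (all but Hoxb1, Hoxd1 and Hoxd3), 13 were higher and 2 lower at a Benjamini-Hochberg adjusted p under 0.05, or 36.1% and 5.56%. Of all genes tested, 17.9% were higher and 18.1% lower. In paralogue groups 9 to 13, 11 of 16 were higher (68.8%) and 1 lower, with a median log2 fold change of 0.66, against 0.00 over all genes. In groups 5 to 8, 2 of 11 were higher (18.2%) and 1 lower, with a median of -0.10, and in groups 1 to 4 none of the 9 tested passed, with a median of 0.00 and 1 gene at an unadjusted p under 0.05; with a correction for GC content and length 1 of them, Hoxb4, was lower (-0.27, adjusted p = 0.0371 by edgeR), as it was without D29H replicate 3 (-0.32, adjusted p = 0.0269) or wild type replicate 2 (-0.31, adjusted p = 0.029).

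By the strength of the calls, 2-fold differences were few. Hoxc12, Hoxc11 and Hoxd12 were at least 2-fold higher by the fitted fold change, and no Hox gene was 2-fold lower. Over all genes, 2.43% were at least 2-fold higher and 2.14% at least 2-fold lower. In 8 of the 36 the 6 Nrf2 libraries lay above the 6 Keap1 libraries without overlap (Hoxa9, Hoxa10, Hoxc11, Hoxc12, Hoxd10, Hoxd11, Hoxd12 and Hoxd13), all in groups 9 to 13, and in 1, Hoxc8, they lay below. Such separation held upward for 6.44% and downward for 6.85% of all genes.

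**Figure D2:**
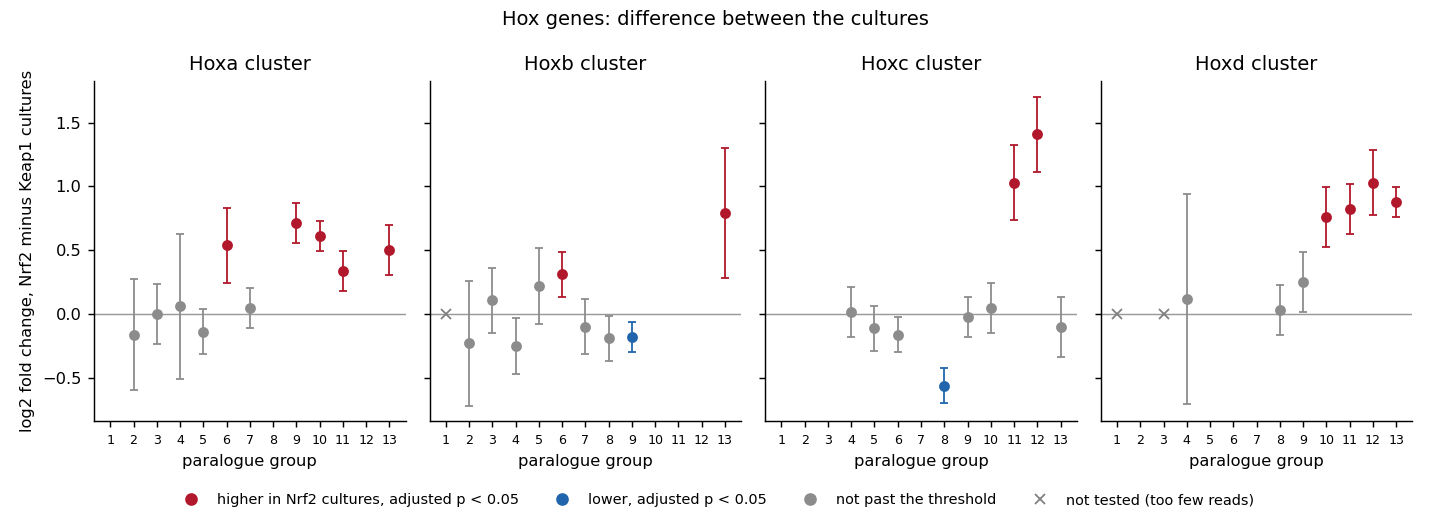
Log2 fold change between the Nrf2 and Keap1 cultures (points, with approximate 95% intervals) for 38 of the 39 Hox genes, by cluster and paralogue group; crosses mark genes with too few reads. Of the 13 higher genes (red), 10 sit at groups 9 to 13 of Hoxa, 11 and 12 of Hoxc and 10 to 13 of Hoxd, where they reach 0.71, 1.41 and 1.03; the others are Hoxa6, Hoxb6 and Hoxb13.

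The Hoxd cluster held an unbroken run of 4 higher genes at its posterior end. Hoxd13 (ENSMUSG00000001819), which patterns digits and the external genitalia, was at 102, 81.6 and 85.4 CPM in the D29H libraries, 108, 107 and 112 in the libraries labelled KO, 53.8, 53.8 and 53.1 in R554Q and 52.2, 51.0 and 57.3 in wild type. Every Nrf2 library was above every Keap1 library, and the fold was 1.85 (log2 0.88, SE 0.06, adjusted p = 2.7e-10 by edgeR). Hoxd12 (ENSMUSG00000001823), also a gene of the distal limb, was lowest, median and highest at 3.72, 4.82 and 6.14 CPM in the Nrf2 and 2.03, 2.26 and 3.13 in the Keap1 libraries. Its groups did not overlap either, with a fitted difference of 1.03 on the log2 scale (SE 0.13, adjusted p = 2.3e-06 by edgeR).

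Hoxd11 (ENSMUSG00000042499), which acts with Hoxa11 in the forearm and the kidney, was at 19.7, 22.7 and 26.3 CPM (lowest, median and highest) in the Nrf2 and 10.3, 12.7 and 16.2 in the Keap1 libraries. Hoxd10 (ENSMUSG00000050368), known from the hindlimb and its motor neurons, was at 4.31, 4.83 and 6.96 against 2.90, 3.12 and 3.40 CPM. Neither gene's groups overlapped, and the log2 fold changes were 0.82 (SE 0.10, adjusted p = 8.2e-07 by edgeR) and 0.76 (SE 0.12, adjusted p = 2.7e-05). The run stopped at Hoxd9, whose ranges overlapped at 6.43 to 8.99 against 4.56 to 8.88 CPM (log2 0.25, SE 0.12, adjusted p = 0.12). Hoxd8 was at 17.4 to 28 against 19.5 to 25.2 CPM, with a log2 fold change of 0.03. Of the exon bases of Hoxd11 10.8%, and of Hoxd10 5.7%, also belong to 1 other listed gene on the same strand. A part of the reads of both may thus not be their own.

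In the Hoxa cluster the 4 genes from Hoxa9 to Hoxa13 were all higher (the mouse has no Hoxa12). Hoxa9 (ENSMUSG00000038227), which acts in blood progenitors as well as in the skeleton, was at 24.2, 29.9 and 34.1 CPM in the Nrf2 and 15, 17.4 and 22.5 in the Keap1 libraries (lowest, median and highest). Hoxa10 (ENSMUSG00000000938), a gene of the uterus and the upper hindlimb, was at 53.3, 58.8 and 64.8 against 35.8, 38.3 and 42.1 CPM. Both were without overlap, at log2 fold changes of 0.71 (SE 0.08, adjusted p = 3.8e-07 by edgeR) and 0.61 (SE 0.06, adjusted p = 1.6e-07).

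The other Hoxa calls were smaller. Hoxa13, needed with Hoxd13 for the hand and foot, was at 8.81, 11 and 13 CPM against 6.03, 8.28 and 9.11, so the lowest Nrf2 library fell within the Keap1 range (log2 0.50, SE 0.10, adjusted p = 4.2e-04 by edgeR). Hoxa11 ranged over 10.2 to 14.1 against 9.10 to 10.9 CPM (log2 0.34, SE 0.08, adjusted p = 0.00325). Its antisense neighbour Hoxa11os was also higher, at 24 to 32 against 14.8 to 19.5 CPM (log2 0.58). Of the exon bases of Hoxa11, 35.0% lie opposite Hoxa11os, and no source says whether counting was stranded, so reads of the pair cannot be told apart. Hoxa6, the only one of groups 1 to 8 in Hoxa that passed, was at 3.92, 5.76 and 7.54 against 2.63, 4.23 and 4.66 CPM with overlap (log2 0.54, SE 0.15, adjusted p = 0.00836). Hoxa5 and Hoxa7 on either side of it had log2 fold changes of -0.14 and 0.05 and did not pass.

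In the Hoxc cluster only 2 neighbouring genes were higher, and the larger of them was the largest change of any Hox gene tested. Hoxc12 (ENSMUSG00000050328) was at 3.32, 3.59 and 4.29 CPM in the Nrf2 and 1.13, 1.37 and 1.82 in the Keap1 libraries, without overlap. The fold was 2.66 (log2 1.41, SE 0.15, adjusted p = 1.9e-07 by edgeR). Hoxc11 (ENSMUSG00000001656) was at 3.13, 4.31 and 4.74 against 1.35, 2.09 and 2.46 CPM, also without overlap (log2 1.03, SE 0.15, adjusted p = 1.4e-05). Hoxc11 is known from the hindlimb. The genes beside them gave no call: Hoxc13, known for its part in hair and nails, was at 3.69 to 5.07 against 3.60 to 5.14 CPM (log2 -0.10), Hoxc10 at 7.41 to 9.65 against 7.16 to 9 (log2 0.05) and Hoxc9 at 11.2 to 12 against 9.98 to 13 (log2 -0.02).

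Hoxc8 (ENSMUSG00000001657), a gene of the thoracic trunk, went the other way. It was at 22.0, 24.3 and 25.8 CPM in the Nrf2 and 31.7, 35.5 and 39.9 in the Keap1 libraries, with every Nrf2 library below every Keap1 library. Its fold was 0.68 (log2 -0.56, SE 0.07, adjusted p = 3.3e-06 by edgeR). Its paralogues did not pass: Hoxb8 had a log2 fold change of -0.19 and Hoxd8 of 0.03.

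The Hoxb cluster had 3 small or uncertain calls. Hoxb13, the only gene of this cluster beyond Hoxb9, was at 1.17, 1.77 and 2.64 CPM in the Nrf2 and 0.297, 1.15 and 1.55 in the Keap1 libraries. Those ranges overlap (log2 0.79, SE 0.26, adjusted p = 0.0203 by edgeR), and without replicate 2 of the libraries labelled KO the log2 fold change was 0.68 and the adjusted p 0.0689. Hoxb6 was higher at 16.7 to 25.3 against 13.4 to 21.0 CPM (log2 0.31, SE 0.09, adjusted p = 0.00875). Hoxb9 was lower at 39.3 to 48.1 against 45.9 to 53.7 CPM (log2 -0.18, SE 0.06, adjusted p = 0.023 by edgeR). That call was lost without replicate 2 of R554Q (adjusted p = 0.0702) and without replicate 1 of wild type (adjusted p = 0.0598).

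**Figure D3:**
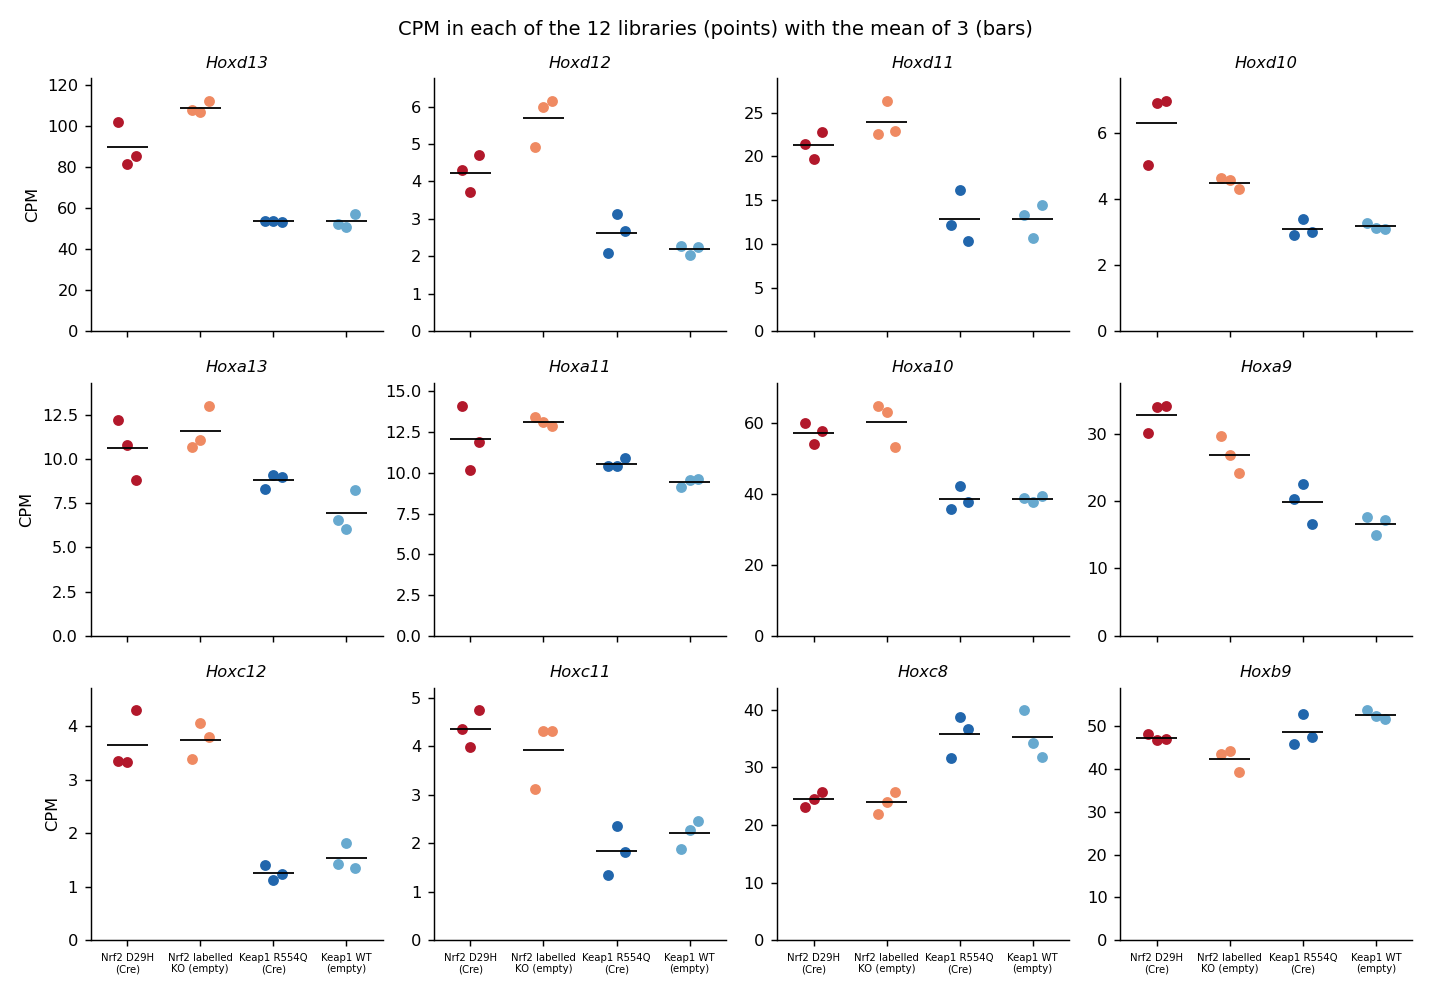
CPM of 12 Hox genes in each library (points) by group, with the mean of 3 (bars); each axis starts at 0. For Hoxd13 the 6 Nrf2 points lie at 81.6 to 112 and the 6 Keap1 points at 51.0 to 57.3, while Hoxc8 shows the opposite order and Hoxb9 overlaps.

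Summed over paralogues, the FPKM ratio of the cultures was largest in groups 10 to 13. The mean summed level in the Nrf2 over that in the Keap1 cultures was 0.845 for group 8, 1.11 for group 9, 1.51 for group 10, 1.63 for group 11, 2.52 for group 12 and 1.82 for group 13. For groups 1 to 4 together it was 1.01 (14.3 ± 2.99 against 14.2 ± 1.88 FPKM, SD, n = 6), for groups 5 to 8 0.994 (81.9 ± 8.65 against 82.4 ± 7.75) and for groups 9 to 13 1.49 (136 ± 3.09 against 91.0 ± 5.22). By cluster it was 1.69 for Hoxd, 1.36 for Hoxa, 1.02 for Hoxb and 0.974 for Hoxc, where the lower Hoxc8 offset the higher Hoxc11 and Hoxc12 in the sum.

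The same shift appeared within each library, on a scale that needs no normalisation between libraries. Groups 9 to 13 made up 54.4% to 61.8% of the summed Hox FPKM in the Nrf2 libraries and 46.5% to 51.4% in the Keap1 libraries, and the ranges did not overlap. Hoxd13 alone made up 14.4% to 20.9% against 10.3% to 12.3%. Groups 5 to 8 filled 33.2% to 38.2% against 41.5% to 45.4%, though their mean summed FPKM was similar (81.9 against 82.4). Groups 1 to 4 filled 5.04% to 7.45% against 6.55% to 8.13%. Among the Nrf2 libraries, the lowest shares of groups 9 to 13 were those of D29H replicates 2 and 3, at 54.5% and 54.4%. The other 4 were at 60.1% to 61.8%.

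**Figure D4:**
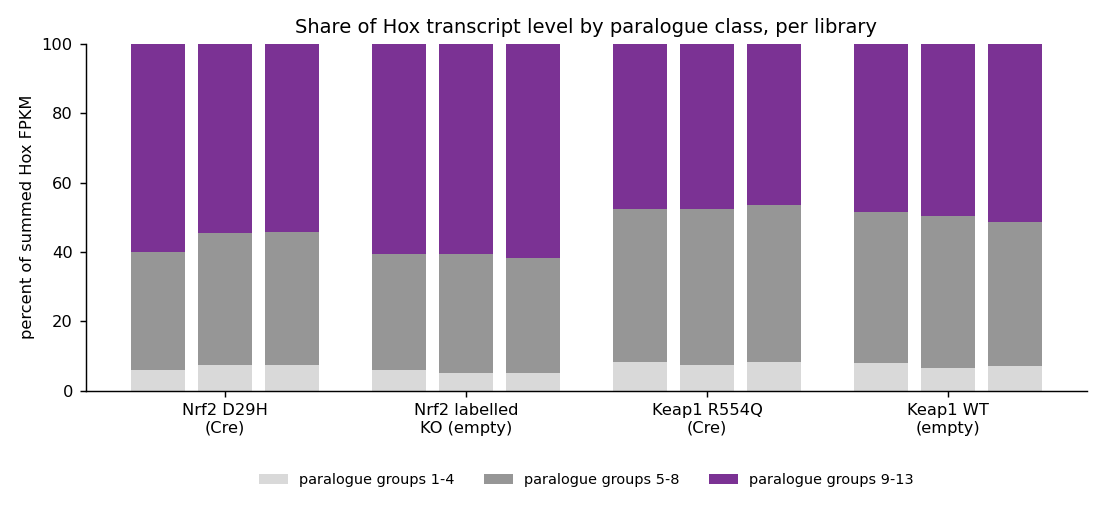
Percent of the summed Hox FPKM in paralogue groups 1 to 4 (light), 5 to 8 (grey) and 9 to 13 (purple) in each library, in 4 groups of 3 bars. The purple part is 54.4% to 61.8% in the Nrf2 libraries and 46.5% to 51.4% in the Keap1 libraries.

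The difference between the cultures was present with either virus. These comparisons share their libraries with the pooled one and are given beside it, not as separate support. With empty virus (libraries labelled KO against wild type), 10 of the 36 Hox genes were higher and 2 lower, where 9.58% and 10.1% of all genes were called. With Cre virus (D29H against R554Q), 8 were higher and 1 lower, where 13.1% and 13.4% of all genes were called. In groups 9 to 13, 10 of 16 were higher with empty virus and 8 of 16 with Cre virus, with medians of 0.67 and 0.63.

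Hoxd13 had a log2 fold change of 1.03 (SE 0.09) with empty and 0.74 (SE 0.09) with Cre virus. Hoxd12 had 1.37 (SE 0.19) and 0.68 (SE 0.19), Hoxc12 1.29 (SE 0.21) and 1.54 (SE 0.22), and Hoxa10 0.65 (SE 0.09) and 0.57 (SE 0.09). Hoxd10 had 0.51 (SE 0.17) with empty virus and 1.02 (SE 0.17) with Cre virus. The empty-virus call of Hoxd10 (adjusted p = 0.0399 by edgeR) was lost without any 1 of 5 libraries: replicates 1 and 2 of those labelled KO and each of the 3 wild type. It was also lost when genes of low count were kept and with DESeq2 (adjusted p = 0.0512 in both), while the log2 fold change was 0.49 to 0.54 in all of these fits. The empty-virus call of Hoxc11 was lost without replicate 2 of those labelled KO and without replicate 1 of wild type, and the Cre-virus call of Hoxd12 without replicate 1 of R554Q. Hoxa13 and Hoxa11 passed with empty virus (0.74 and 0.48) and had 0.27 and 0.19 with Cre virus, where they did not. Hoxc8 was lower with both, at -0.57 and -0.55.

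Whether the virus changed the difference between the cultures was tested as the difference of the 2 Cre effects. None of the 36 Hox genes passed with edgeR or DESeq2, where 0.00676% of all genes were called higher and 0.0203% lower. The smallest adjusted p was 0.338, and 5 Hox genes had an unadjusted p under 0.05. For Hoxd12 the difference was -0.69 (SE 0.27) on the log2 scale, for Hoxd13 -0.29 and for Hoxd10 0.51. The approximate 95% interval, not adjusted for the number of genes, was -1.21 to -0.17 for Hoxd12, -0.53 to -0.04 for Hoxd13 and 0.04 to 0.98 for Hoxd10.

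Within the Nrf2 cultures, Cre virus was compared with empty virus, D29H with the libraries labelled KO. A few genes of the anterior and middle groups were higher with D29H: 3 of the 36 passed, Hoxc5, Hoxc6 and Hoxb4, and none was lower. Of the 14370 genes tested, 3.47% were higher and 1.28% lower. Hoxc6, which acts in the thorax and the mammary gland, was at 27.3, 34.2 and 36.2 CPM in D29H and 24.2, 25.4 and 23.8 in the libraries labelled KO. Hoxc5 was at 9.98, 12.4 and 12.1 against 7.25, 9.26 and 7.58 CPM. Hoxb4, known for its part in blood stem cells and the neck vertebrae, was at 8.10, 9.56 and 11.6 against 7.38, 6.45 and 6.53 CPM. In these 3 genes every D29H library lay above every library labelled KO, and D29H replicate 1 was the lowest of its group. Of all genes tested, 12.7% lay without overlap above and 12.9% below in this way, and of the 36 Hox genes 9 and 2.

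The log2 fold changes were 0.41 (SE 0.11, adjusted p = 0.0379 by edgeR) for Hoxc6, 0.51 (SE 0.14, adjusted p = 0.0377) for Hoxc5 and 0.52 (SE 0.15, adjusted p = 0.0476) for Hoxb4. Hoxc4 was close at 0.49 (adjusted p = 0.0534). These calls were fragile: each was lost in 4 of the 6 fits that leave out 1 library, and without D29H replicate 2 or 3 no Hox gene was called higher. The Hoxb4 call also ended with DESeq2 (adjusted p = 0.0551), limma (0.0591), the replicate block (0.0507) and the correction for GC content and length (0.0545), and the Hoxc6 call with limma (0.05). Without D29H replicate 1, 6 were higher (these 3 with Hoxc4, Hoxa9 and Hoxd10) and Hoxd13 was lower, at -0.39. In the authors' deposited table the adjusted p was 0.0413 for Hoxc6, 0.0536 for Hoxc5 and 0.0718 for Hoxb4.

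By class, the median log2 fold change with D29H was 0.49 for groups 1 to 4 (8 of 9 above 0), 0.13 for groups 5 to 8 (9 of 11 above 0) and -0.08 for groups 9 to 13 (5 of 16 above 0), while 50.1% of all genes were above 0. Hoxd13 was at 81.6 to 102 CPM with D29H against 107 to 112 and did not pass (log2 -0.29, adjusted p = 0.103); the ranges did not overlap, as for 12.9% of all genes in that direction. Hotairm1, a non-coding RNA of the Hoxa cluster, was higher with D29H (log2 0.64, adjusted p = 0.0325 by edgeR), but did not pass with a correction for GC content and length (0.51, adjusted p = 0.0662).

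Within the Keap1 cultures, no Hox gene passed between R554Q and wild type with edgeR or DESeq2, where 3.77% of the 14128 genes tested were higher and 2.40% lower. The smallest adjusted p was 0.0961, for Hoxc6 (log2 0.25, SE 0.09), and 6 Hox genes had an unadjusted p under 0.05. Hoxc6 was at 32.2, 35.2 and 35.6 CPM in R554Q against 30.2, 29.3 and 27.6 in wild type. Hoxc5 was at 11.1, 12.4 and 10.9 against 8.72, 9.57 and 9.85 CPM (log2 0.30, SE 0.12), and Hoxb4 at 9.87, 11.8 and 10.6 against 10.1, 7.04 and 8.84 CPM (log2 0.32, SE 0.14). Without R554Q replicate 3, Hoxa9 (0.37) and Hoxb6 (0.33) passed as higher.

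Of the 36 log2 fold changes 29 were above 0 (80.6%, against 49.9% of all genes), among them 11 of 11 in groups 5 to 8, with a median of 0.14. With a correction for GC content and length 27 of 36 were above 0 and the median stayed at 0.14. The libraries of this culture differed in their trend with GC content: the correlation across genes of a library's deviation with GC content was 0.24 and 0.25 in R554Q replicates 1 and 2 and -0.34 in wild type replicate 2.

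**Figure D5:**
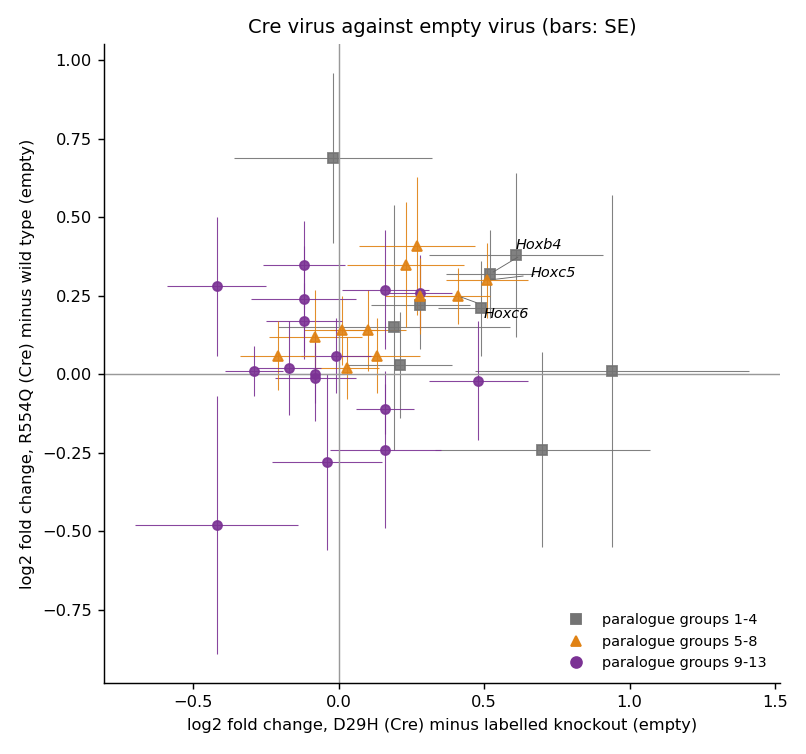
Log2 fold change of each tested Hox gene between Cre and empty virus in the Nrf2 cultures (x axis) and the Keap1 cultures (y axis), with SE bars; symbols give the paralogue class, and the 3 genes called in the Nrf2 cultures are named. Purple points (groups 9 to 13) lie mostly left of 0 on the x axis, and 29 of 36 points lie above 0 on the y axis.

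The genes beside and within the clusters were read next. Of 18 other protein-coding genes tested within 250 kb, 3 were higher and 4 lower in the Nrf2 cultures, near the 17.9% and 18.1% of all genes. The 18 include a gene model listed as HOXD3, not among the 39, which shares exons with Hoxd3 and Hoxd4 and did not pass (-0.10). Evx2, a homeobox gene next to Hoxd13, was at 2.65 to 4.2 against 1.23 to 2.22 CPM (log2 1.05, SE 0.16, adjusted p = 1.9e-05 by edgeR). Lnp, the next gene outward, was at 24.3 to 32.8 against 15.9 to 22.8 CPM (log2 0.40), and neither overlapped. Hnrnpa1 beside Hoxc was higher by 0.26, and Skap1 (-0.53), Calcoco1 (-0.45) and Copz1 (-0.28) led those that were lower. Of 10 tested non-coding genes in the clusters only Hoxa11os passed.

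HOX proteins bind DNA with TALE homeodomain partners such as PBX, MEIS and PREP. Of 11 TALE genes listed, which also include Tgif1 and Tgif2, 1 was higher and 4 lower in the Nrf2 cultures, beside 17.9% and 18.1% of all genes. Pknox2, which encodes a PREP protein, was at 8 to 10.3 against 4.81 to 5.63 CPM (log2 0.78). Meis3 was at 17 to 26.1 against 26 to 40.0 CPM (log2 -0.64), with Pbx4 (-0.48), Meis1 (-0.41) and Tgif1 (-0.25) lower too. Of the Polycomb and Trithorax regulators, which keep Hox genes silent or active, 4 of 28 were higher (Cbx7 at 0.81, Pcgf2 at 0.34, Kmt2b at 0.30 and Ezh2 at 0.26) and none lower, against 17.9% and 18.1% of all genes. With offsets per library for GC content and length, 8 of that list were higher. With D29H, 3 of the 28 were higher and none lower, where 3.47% and 1.28% of all genes were called. They were Kmt2a, whose product maintains Hox transcription (log2 0.59), Kmt2b (0.43) and Kdm6b (0.40). Kmt2a was at 61.3, 116 and 93.3 CPM in D29H, so replicate 1 fell within the 55.5 to 62 of the libraries labelled KO. None of these 3 passed with the GC and length offsets, where they had 0.24, 0.24 and 0.27. Of 7 tested upstream signals, Gdf11, a ligand that sets the trunk-to-tail transition, was at 43.1 to 58.6 against 67.7 to 76.3 CPM (log2 -0.43), and Rxra had -0.33. No other passed.

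Other transcription factors that mark body position were read beside the Hox genes. Of 29 tested factors of the limb and body wall, 7 were higher and 8 lower, where 17.9% and 18.1% of all genes were called. By virus the counts were 7 higher and 2 lower with empty virus (all genes: 9.58% and 10.1%) and 2 higher and 8 lower with Cre virus (13.1% and 13.4%), and no factor of the list passed the test of the difference between the Cre effects. Tbx4, the hindlimb T-box gene, was at 16.5 to 18.1 CPM in the Nrf2 and 5.22 to 11 in the Keap1 libraries (log2 1.20, SE 0.09, adjusted p = 8.0e-10 by edgeR), followed by Isl1 (0.67) and Lmx1b (0.56). Msx2 was at 9.29 to 11.5 against 19.7 to 26.6 CPM (log2 -1.18, SE 0.08), followed by Pax1 (-0.70) and Tbx2 (-0.59). Of 14 tested head and neck factors, 4 were higher and 8 lower (all genes: 17.9% and 18.1%), with a median of -0.62. Lhx8, a homeobox gene of the jaw and basal forebrain, was at 0.261 to 1.51 against 3.17 to 3.61 CPM (log2 -1.67, SE 0.22, adjusted p = 2.9e-06 by edgeR), with Dlx1 (-1.45) lower as well. Six2 (0.39) was among the higher ones. With R554Q, 6 of 28 tested limb and body-wall factors were higher, against 3.77% of all genes, and 2 with the GC and length offsets. Tbx4 was among them (log2 0.63, adjusted p = 0.0242 by edgeR; with the offsets 0.57, adjusted p = 0.0498), and with D29H its log2 fold change was -0.03.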

How the data were processed

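The 39 members and the gene lists were chosen with earlier results of these data known. The deposited tables give raw counts of reads and FPKM, per the file headers; these FPKM were recomputed from counts, length and column total to within 5e-10%. The deposited tables also hold the authors' group means (a normalised signal), log2 fold changes and p-values, of which only the adjusted p of 3 genes is quoted. STAR, DESeq2 and mm10 are named in the submitters' processing notes; versions, annotation and strand are not given in the sources used here. Both tables listed 20844 genes.

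Tests used edgeR 4.0.16 under R 4.3.3 (filterByExpr, TMM scaling, glmQLFit and glmQLFTest, Benjamini-Hochberg adjustment over all genes): 1 fit of 12 libraries for the culture comparisons and the difference of Cre effects, and a fit of 6 for each Cre effect. CPM use the TMM-scaled library size. SE is the log2 fold change over the root of the test statistic. Full values are given for the 15 called members with the largest changes, and up to 3 genes per direction from each list; a few genes are not reported here. On simulated counts over 14794 genes the culture fit recovered 81% of 1.5-fold and 92% of 2-fold changes, with 12 false calls. The fits of Cre effects recovered 66% and 77% in the Nrf2 cultures (14370 genes, 3 false calls). In the Keap1 cultures they recovered 75% and 94% (14128 genes, 7 false calls). Each simulation changed 100 genes by each fold and drew the libraries independently. Many more genes were called between the cultures in the data, so recovery there can differ. Alternatives were upper-quartile and RLE scaling, a mean count of 50 or no filter, DESeq2 1.42.0, limma 3.58.1 with trend (prior count 2), GC and length offsets, a replicate block, an adjusted p under 0.01 and leaving out each library.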

Additional observations from a re-analysis of the deposited data

How the results depend on the processing

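None of the calls of Hox genes changed sign under any alternative; signs of Hox genes that were not called did change, so that 22 of 36 in place of 23 were above 0 in the pooled culture comparison with GC and length offsets. In that comparison 12 to 14 Hox genes were higher over 22 alternatives, and 13 of the 15 named calls were never lost (the exceptions are Hoxb9 and Hoxb13). The 2 lower calls became 1 at an adjusted p under 0.01 and 1 to 4 when 1 library was left out: 4 without D29H replicate 3, 1 without R554Q replicate 2 or wild type replicate 1. With GC and length offsets 3 were lower, the added one being Hoxb4, in the pooled comparison (-0.27, adjusted p = 0.0371) as with empty virus (-0.40, adjusted p = 0.0491). With empty virus 8 to 11 were higher, and the 2 lower calls became 1 at an adjusted p under 0.01 and 1 to 2 with 1 library left out (1 without wild type replicate 1). With Cre virus 8 to 10 were higher and 1 lower throughout. In the Nrf2 cultures the 3 genes higher with D29H became 0 at an adjusted p under 0.01 and 1 with limma; with single libraries left out, 0 to 6 were higher and 0 to 1 lower, with 1 higher without any 1 of the libraries labelled KO. In the Keap1 cultures 0 to 2 were higher with single libraries left out. The cause of these shifts was not tested, beyond the fewer libraries or stricter threshold of the alternative itself.

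The replicate numbers were not taken to pair the samples, since the labels give no shared source and over all genes same-number deviations correlated at -0.10, -0.07 and -0.02 within the Nrf2 and 0.03, -0.17 and -0.02 within the Keap1 cultures, and at 0.03, -0.05 and -0.03 with empty and 0.05, 0.12 and -0.19 with Cre virus between cultures. Over the Hox genes alone the values between cultures were 0.29, 0.24 and 0.38 with empty virus, where different numbers gave -0.40 to 0.00. With Cre virus they were 0.38, 0.05 and 0.23, where different numbers gave -0.35 to 0.24. Within the Nrf2 cultures same numbers gave 0.05, -0.44 and 0.16, and different numbers -0.23 to 0.33. Within the Keap1 cultures same numbers gave 0.48, 0.01 and 0.27, and different numbers -0.45 to 0.28. With the number as a block, 13 Hox genes were higher and 2 lower in the pooled culture comparison, 10 and 2 with empty virus, 8 and 1 with Cre virus, 2 and 0 with D29H and 0 and 0 with R554Q. Hoxb1, Hoxd1 and Hoxd3 had too few counted reads to be tested, and Hoxd4 had a wide interval, from -0.71 to 0.94. For Hoxd3 and Hoxd4, sequencing depth and exons shared with other listed genes cannot be told apart as reasons.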
